A study of Mus musculus with 2 samples.

Results

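A set of 9 genes was followed across cell types of the mouse embryo at embryonic day 7.0: Duox2, Duoxa2, Il5ra, Olfr1459, Oxct2b, Nat8l, Htra1, Plut and Enpp3. They were the 9 of 32285 measured genes with these symbols, along with the 133 of 229480 accessibility peaks that lay within 50 kb of their starts. The genes had been picked because their RNA, or for Enpp3 and Plut the relation of RNA to accessibility, stood out in extraembryonic ectoderm in an earlier look at the same nuclei, so the difference from other cells is described here and not tested. The labels gave pooled embryos staged at E7.0, with nuclear RNA and chromatin accessibility read from the same nuclei in 1 library per assay and with no allele or treatment that could be tied to the embryos. Other label fields named intestinal tissue, goblet cells and the strain RedMUC298trTg. Those fields went against the age and the protocol, and a list of 8 goblet and intestinal markers summed to 0.590 CPM (UMIs of the gene per 1000000 UMIs of the group) in the class described below and to 1.13 CPM elsewhere. A UMI is a molecular tag that marks 1 captured RNA molecule. All 15341 barcodes carried both assays, none could be traced to a single embryo, and every interval below is a 95% interval that covers counting error only.

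Extraembryonic ectoderm is the trophoblast tissue that borders the epiblast and later gives rise to chorion and placenta. Its stem-like cells are known for the transcription factors Cdx2, Elf5, Esrrb and Tfap2c, and the ectoplacental cone and giant cells that form next to it are known for Ascl2 and prolactin-family genes such as Prl3d1. The 9 genes belong to unrelated families. Duox2 encodes a dual oxidase that releases hydrogen peroxide and Duoxa2 its maturation factor, Il5ra the ligand-binding chain of the interleukin-5 receptor, and Olfr1459 an olfactory receptor. Oxct2b encodes a germ-cell form of the enzyme that uses ketone bodies, Nat8l the synthase of N-acetylaspartate, Htra1 a secreted serine protease, and Enpp3 a nucleotide pyrophosphatase. Plut is a long noncoding RNA transcribed next to the pancreas and duodenum regulator Pdx1.

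After filtering, 12796 of the 15341 barcodes (83.4%) were kept as nuclei, with medians of 10471 UMIs, 4221 genes and 17350 peak counts. For RNA, the extraembryonic ectoderm-like class was taken from accessibility clusters, so that the RNA did not place the nuclei, although marker RNA named the clusters. It held 1604 nuclei in 3 clusters, with a median of 12277 UMIs against 10253 in the other 11192 nuclei. All 10 extraembryonic ectoderm markers, which had named it, were at least 2-fold higher in it (1434 against 122 CPM summed), and all 10 visceral endoderm markers were at least 2-fold lower (736 against 3918 CPM). The extraembryonic mesoderm list was split but higher in sum (475 against 80.1 CPM), with Ahnak (260 against 13.6 CPM), Bmp4 (150 against 15.6 CPM) and Hand1 (51.4 against 13.5 CPM) higher, and Tbx20, Foxf1 and Pitx1 lower, of 6 tested genes. The anterior ectoderm list was also higher in sum (341 against 198 CPM) through Pou3f1 (328.5 against 115.8 CPM), with its 5 other genes lower. Accessibility cluster 8, with 789 nuclei, was the most mixed of the 3. By RNA, 466 of its nuclei fell in the extraembryonic ectoderm-like RNA cluster and 315 in an unnamed RNA cluster of 383 nuclei led by Prl3d1 and Ascl2. This unnamed RNA cluster is called the Prl3d1-led cluster after its leading gene, although 6.79% of its nuclei had a Prl3d1 UMI and 61.6% an Ascl2 UMI. Accessibility cluster 13, with 370 nuclei, held 263 nuclei of the extraembryonic ectoderm-like RNA cluster and 58 Prl3d1-led nuclei. Values without cluster 8 therefore still include Prl3d1-led nuclei. The ectoplacental cone and giant cell list stood at 203 CPM in the class and 182 CPM elsewhere, with 4 of its 6 tested genes higher, Tpbpa at 1 UMI and Ctsq and Prl7a2 at 0. Flt1, also an endothelial gene, made up 161 of the 182 CPM elsewhere and 17.8 of the 203 CPM in the class. Values are therefore also given for the 1168 nuclei placed in the class by both assays, and the share of these neighbouring trophoblast nuclei in each result was not tested. For accessibility, the class was taken from RNA clusters (1182 nuclei against 11614 others).

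Of the 9 genes, 8 were at least 2-fold higher in the class than in all other nuclei and Enpp3 was at least 2-fold lower, where 7.59% of the 17686 genes with at least 50 UMIs were higher and 25.1% lower. The median gene was at a log2 ratio of -0.18. All 9 members had at least 50 UMIs, but the genes had been chosen on this contrast, so nothing is read from that count. From 61.4% (Plut) to 94.6% (Il5ra) of all UMIs of the 8 higher genes came from the class, and 2.66% of the UMIs of Enpp3 did. The class held 12.5% of the nuclei and 22027273 of the 145682614 UMIs of all kept nuclei. The map of levels over clusters shows the 3 class clusters above every other cluster for each of the 8 genes, although Plut was at 23.4 CPM in cluster 8 and at 23.2 CPM in a visceral endoderm-like cluster.

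**Figure D1:**
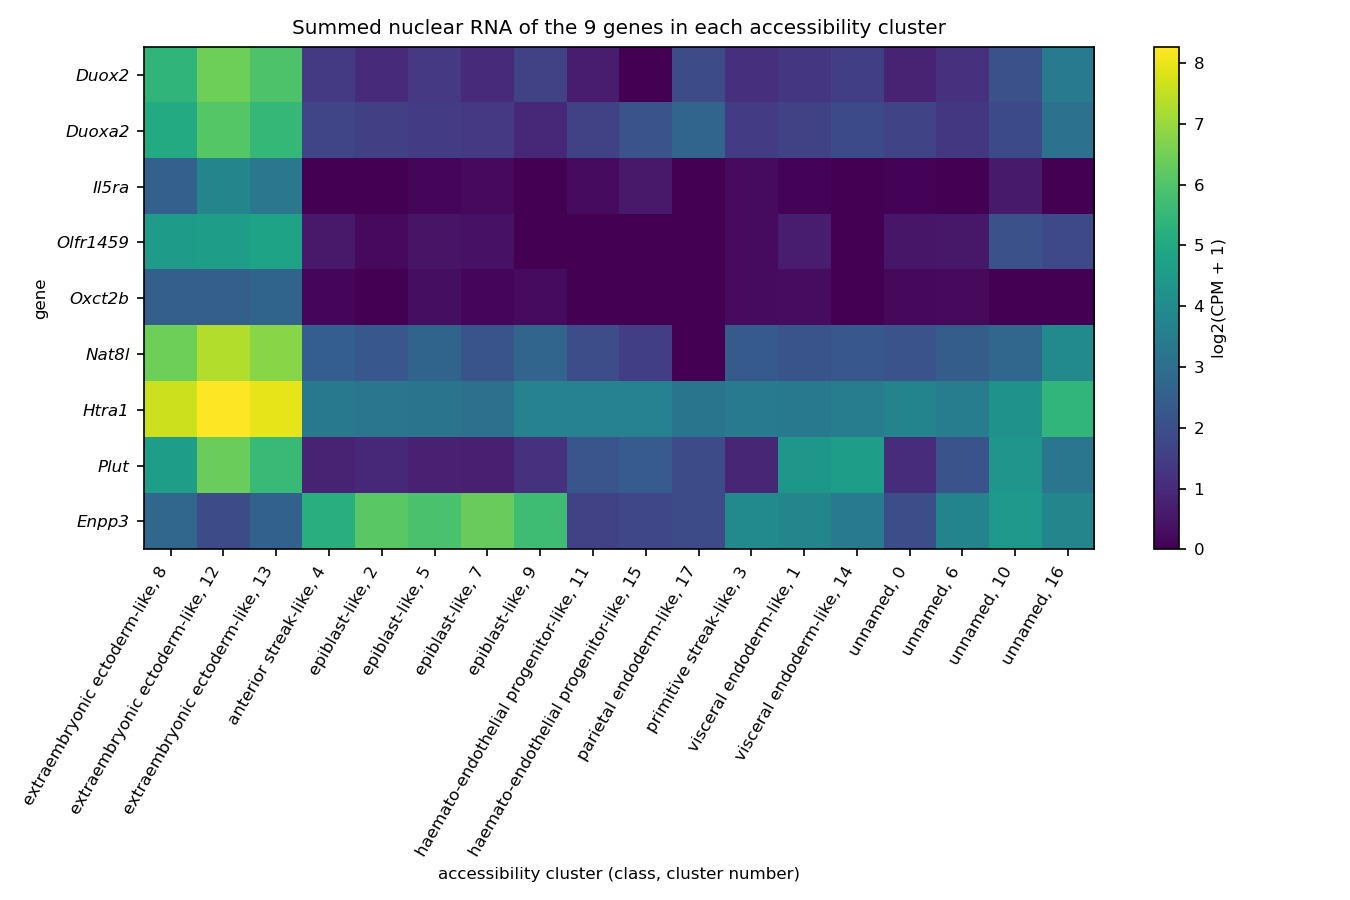
Summed nuclear RNA of each gene (rows) in each of 18 accessibility clusters (columns), as log2(CPM + 1) on the colour scale. The 3 extraembryonic ectoderm-like clusters on the left hold the highest level of 8 genes, and the 4 epiblast-like clusters hold that of Enpp3 (51.4 to 80.5 CPM).

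To compare shares of nuclei at equal depth, each nucleus was thinned to 5000 UMIs, which left 1472 class nuclei and 9715 others. A Duox2 UMI was then seen in 22.1% of class nuclei (19.98 to 24.3) and in 0.628% of others (0.481 to 0.806). The corresponding shares were 19.2% and 0.896% for Duoxa2, 36.8% and 2.05% for Nat8l, and 61.5% and 4.67% for Htra1. Il5ra, Olfr1459 and Oxct2b, which had few UMIs, also had the higher share in the class. Their shares were 3.74% and 0.0515% for Il5ra, 7.88% and 0.0926% for Olfr1459, and 2.38% and 0.0515% for Oxct2b. Plut was found in 13.4% of class nuclei and 1.95% of others, and Enpp3 ran the other way, at 1.97% against 11.6%. The Enpp3 share was 0.567% without the mixed cluster 8 and 0.811% in nuclei placed by both assays. In each pair the intervals of class and others were apart, as the plot of shares shows, and the shares elsewhere include any free RNA caught in the droplets. Without thinning the share of class nuclei was 41.2% for Duox2 and 77.6% for Htra1.

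**Figure D2:**
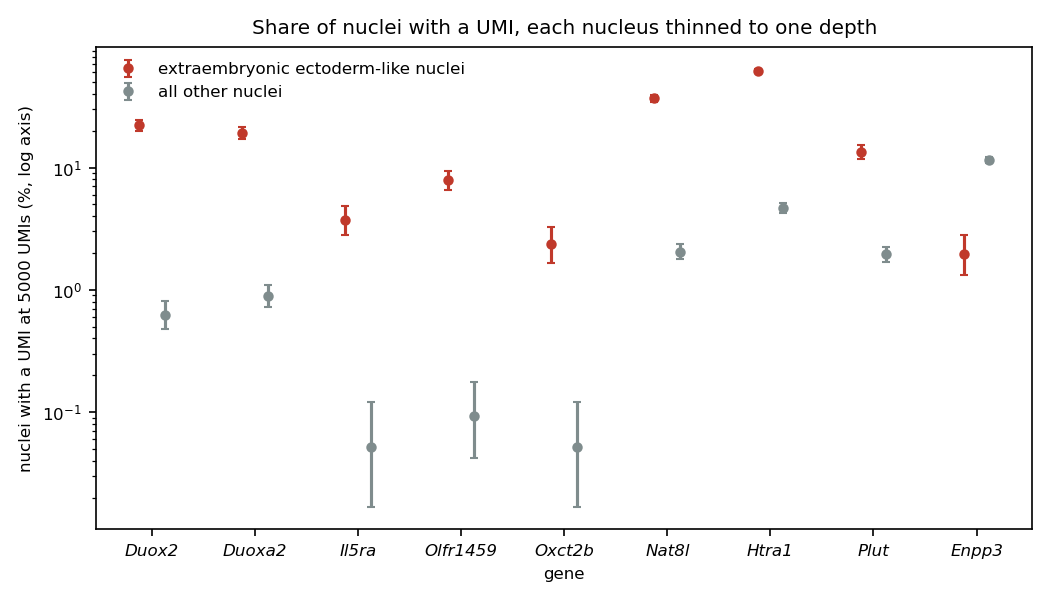
Share of nuclei with at least 1 UMI of each gene after thinning to 5000 UMIs (percent, log axis), in 1472 extraembryonic ectoderm-like nuclei and 9715 other nuclei, with exact binomial intervals. Class and others are apart for every gene, and Enpp3 is the one gene with the higher share outside the class (11.6% against 1.97%).

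Over all members, 33 of the 133 peaks within 50 kb were at least 2-fold higher in the class and 33 lower. Of all 229253 tested peaks 11.4% were higher and 42.6% lower, and of the 179594 within 50 kb of any gene start 11.7% were higher and 39.5% lower. The median peak was at a log2 ratio of -0.7 over all tested peaks and -0.58 near any start. Leaving Enpp3 out, 31 of 114 (27.2%) were higher and 26 lower, a larger share of higher and a smaller share of lower peaks than near all starts. Peaks near 1 gene are not independent, and this was not tested. The gene left out was the one known to be low in the class. The others were picked for this contrast, so nothing is read from these shares. The peaks with the largest ratios lay away from the starts: 39.6 kb (Duox2), 15.7 kb (Il5ra), 47.8 kb (Oxct2b), 7.25 kb (Nat8l), 9.78 kb (Htra1) and 26.4 kb (Plut). These windows held 0 to 2 start peaks among 6 to 31 in all, so most peaks of any ratio lay away from the starts. Nothing is read from the place of the largest. Summed per gene, start peaks ranged from 0.304-fold (Oxct2b) to 2.67-fold (Nat8l), while the RNA of those genes was 39.7-fold and 27.5-fold higher. The Duox2 and Duoxa2 windows share all 21 of their peaks, so they are 1 locus and not 2. The files did not tie peaks to genes, and a peak within 50 kb may belong to another gene such as Bmp8b, Cdx2 or Sord.

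**Figure D3:**
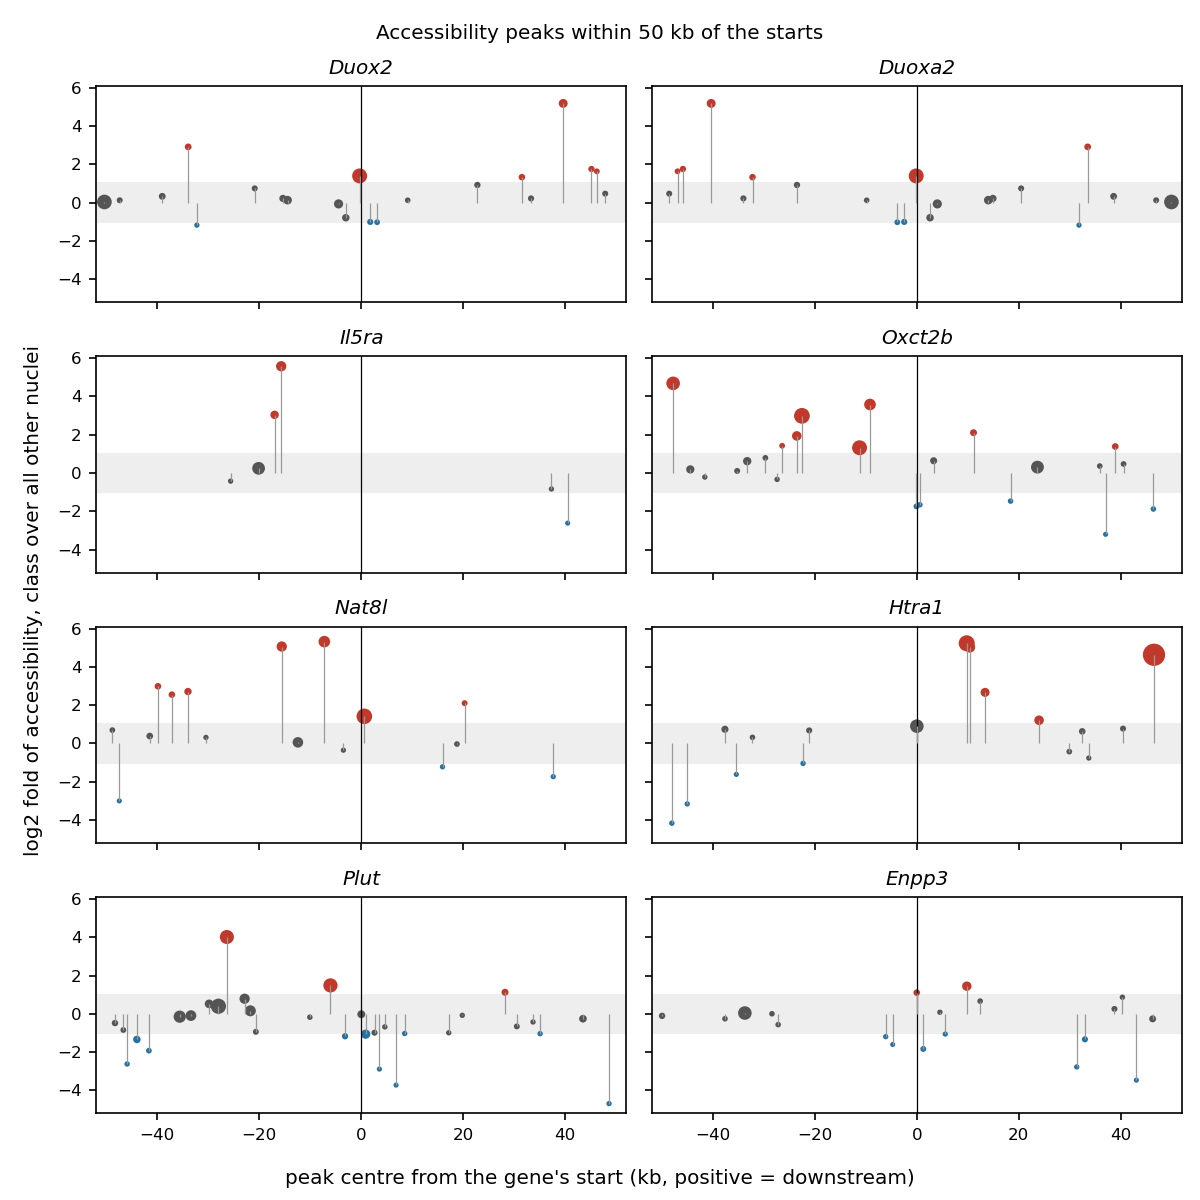
Log2 ratio of accessibility (extraembryonic ectoderm-like over all other nuclei by RNA clusters) of each peak against the distance of its centre from the gene's start in kb, for the 8 members with a peak; dot area grows with CPM in the class, and the grey band spans 2-fold in either direction. Most peaks lie away from the starts whatever their ratio, and the 3 tallest of Htra1 lie inside the gene at 9.78, 10.4 and 46.5 kb.

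Duox2 (ENSMUSG00000068452, chr2:122279246-122298740 in RefSeq GRCm38.p6) and Duoxa2 (ENSMUSG00000027225, chr2:122298900-122302885) lie head to head and share their start region. The dual oxidase needs its partner factor to leave the endoplasmic reticulum, so the pair is described together. RefSeq places 159 bases between both genes, at chr2:122298741-122298899, shown because it carries the one peak at both starts. Capitals mark matches on either strand to the GC box GGGCGG, found at 2 places and in 35.7% of 32851 RefSeq promoter windows of 300 bases, and to the CDX letters TTTATNG, found in 10.9% of windows. The CDX match contains the letters of a TATA box, TATAAA. All these matches lie in the promoter window of Duoxa2. The promoter window of Duox2 (chr2:122298178-122298477) and its deposited start interval (chr2:122298165-122298449) lie outside the printed stretch, and that window had 0 motif matches.
Duox2 and Duoxa2 interval: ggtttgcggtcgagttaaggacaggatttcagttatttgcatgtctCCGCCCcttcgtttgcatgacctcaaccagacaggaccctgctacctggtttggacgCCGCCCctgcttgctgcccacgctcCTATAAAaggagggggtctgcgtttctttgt
The peak over this interval (chr2:122298319-122299223) reached 38.2 CPM of peak counts in the class and 14.6 CPM in others, a 2.62-fold difference (2.34 to 2.93). It was at 16.2 CPM in epiblast-like nuclei, at 7.36 CPM in visceral endoderm-like nuclei and at 22.6 CPM in the Prl3d1-led cluster, so it was open outside the class as well. A distal peak 39.6 kb downstream of the Duox2 start, inside Sord (chr2:122258120-122259008), had a larger ratio, at 10.3 against 0.284 CPM (36.2-fold, 24.8 to 54.0). It stood at 2.42 CPM in the Prl3d1-led cluster. The RNA of Sord itself was 2.46-fold higher in the class (78.8 against 32.1 CPM). A peak inside Duox1, 34.0 kb upstream of the Duox2 start, was 7.51-fold higher in the class (4.91 to 11.4), and was at 3.86 CPM there and at 9.67 CPM in the Prl3d1-led cluster. Of the 21 peaks within 50 kb, 6 were at least 2-fold higher and 3 lower, beside 11.7% and 39.5% of peaks near any start. Those lower included 2 inside Duox2, 1.75 and 3.10 kb from its start (2.205 against 4.446 and 1.303 against 2.658 CPM). Summed, the 21 peaks were 1.36-fold higher (1.29 to 1.44).

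Duox2 RNA stood at 58.0 CPM in the class (54.8 to 61.2) on 1277 UMIs and at 1.33 CPM in others (1.13 to 1.55) on 164 UMIs, a 43.7-fold difference (37.1 to 51.8). In the named classes outside it ranged from 0.388 CPM in haemato-endothelial progenitor-like nuclei to 1.65 CPM in anterior streak-like nuclei, and to 2.74 CPM on 1 UMI in the 27 parietal endoderm-like nuclei. Its highest level outside the class was in the unnamed accessibility cluster 16 (161 nuclei), at 9.42 CPM (4.70 to 16.9) on 11 UMIs. Duoxa2 RNA stood at 44.5 CPM against 1.99 CPM (22.4-fold, 19.5 to 25.9). Other named classes lay between 1.64 CPM in epiblast-like and 5.48 CPM in parietal endoderm-like nuclei, the last on 2 UMIs, and cluster 16 was at 7.71 CPM (3.52 to 14.6). With doublet calls kept, the fold was 14.5 for Duox2 and 11.0 for Duoxa2. Across 17 accessibility clusters of at least 50 nuclei, the gene most like Duox2 in level was Nat8l (Pearson r 0.99 of log2(CPM + 1)), then 2410141K09Rik (0.99) and 1700029P11Rik (0.98). Those most like Duoxa2 were Htra1, Tmem114 and Tbx18 (each 0.98). All such points share 1 library, and r describes them without a test. The class clusters are among the 17, and the members were picked for this contrast. A high r, here and for the members below, therefore restates that choice in part.

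The paralogous pair beside them did not follow in full. Duox1, the sister oxidase, was at 3.54 CPM in the class and 5.18 CPM in others (0.684-fold, 0.534 to 0.867). Duoxa1, its maturation factor, had 22 UMIs in the class and 8 elsewhere (15.4-fold, 6.62 to 40.1), too few for the 50-UMI limit. Of the 8 other tested genes of the dual oxidase and NADPH oxidase list, 0 were at least 2-fold higher and 2 lower, with a median log2 ratio of -0.26. The share lower is that of all tested genes (25.1%), so it is no result about the list, and the counts of the short lists that follow are to be read against the same 7.59% higher and 25.1% lower. The lower ones were Nox4, a constitutively active oxidase (2.95 against 18.8 CPM), and Ncf1, an organiser of the phagocyte oxidase (2 against 64 UMIs). Among 14 tested peroxidases and peroxide-removing enzymes, 0 were higher and 1, the matrix peroxidase Pxdn, was lower (36.1 against 102 CPM). Of the thyroid hormone genes, thyroglobulin (Tg), Slc26a4, Iyd and Pax8 had 0 UMIs in the class, which allows a level of up to 0.136 CPM. They had 6, 48, 8 and 36 UMIs elsewhere. For Tg and Iyd the level elsewhere (0.0485 and 0.0647 CPM) was below that limit, so their 0 cannot show a difference. Tshr had 22 UMIs in the class and 163 elsewhere, and Foxe1 7 and 19. The iodide transporter Slc5a5 was at 4.77 against 3.49 CPM (1.36-fold).

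Il5ra (ENSMUSG00000005364, chr6:106710375-106749037) encodes the chain that binds interleukin-5 and pairs with a shared beta chain to signal. It had 174 UMIs in the class and 10 in all other nuclei, or 7.90 CPM (6.77 to 9.16) against 0.0809 CPM (0.0388 to 0.149), a 97.7-fold difference (51.9 to 207), and 19.6-fold with doublet calls kept. The 10 UMIs elsewhere came from 10 different nuclei. No named class outside exceeded 3 UMIs, so their order could not be resolved at this depth. The deposited start of Il5ra had no peak. The 250 bases before its RefSeq start (chr6:106749038-106749287, minus strand) are shown as a start without a peak, with the 1 motif match, the GATA letters AGATAA (11.2% of promoter windows), in capitals.
Il5ra upstream: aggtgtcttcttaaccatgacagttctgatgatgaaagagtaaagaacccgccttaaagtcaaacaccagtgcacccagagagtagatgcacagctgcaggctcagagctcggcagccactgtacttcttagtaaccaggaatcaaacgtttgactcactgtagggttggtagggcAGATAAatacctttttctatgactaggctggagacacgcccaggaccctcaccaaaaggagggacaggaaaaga
The nearest accessible sites lay further upstream. A peak 15.7 kb before the start (chr6:106764327-106765163) reached 15.3 CPM in the class and 0.322 CPM in others, a 47.6-fold difference (33.1 to 70.1), and 12.3% of class nuclei had a count there against 0.319% of others. A second peak 17.0 kb before the start was 8.21-fold higher (6.22 to 10.8). Both were low in the Prl3d1-led cluster, at 2.10 and 1.29 CPM. These peaks lie between Il5ra and Trnt1, a tRNA-processing enzyme 20.1 kb away that was 2.11-fold higher in the class (2.03 to 2.20).

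Genes of the shared beta chain and of the cytokines were scarce in all nuclei. The shared beta chain genes Csf2rb and Csf2rb2, the ligand Il5 and the related cytokines Il3 and Csf2 all had 0 UMIs in the class (up to 0.136 CPM), and 4, 5, 7, 0 and 0 UMIs elsewhere. For Csf2rb, Csf2rb2 and Il5 the level elsewhere (0.0324, 0.0404 and 0.0566 CPM) was below that limit, so their 0 cannot show a difference. Of the 6 other tested genes of the interleukin-5 list, 1 was at least 2-fold higher and 1 lower. The higher one was Csf2ra, the ligand-binding chain for GM-CSF (14.4 against 4.05 CPM, 3.54-fold). The lower one was Stat5b, a signal-carrying transcription factor (7.72 against 27.3 CPM, 0.282-fold), while its twin Stat5a was at 2.59 against 2.85 CPM and the kinase Jak2 at 22.7 against 26.7 CPM. Sdcbp, also on the interleukin-5 list, was at 57.7 against 45.7 CPM (1.26-fold, 1.19 to 1.34). The levels of Il5ra over clusters were most like those of Rusc2 (r 0.99), Gm48941 and Noct (both 0.98).

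Olfr1459 (ENSMUSG00000057503, chr19:13145734-13146657) lies in a cluster of olfactory receptor genes, and olfactory receptors are textbook genes of nasal sensory neurons. Its RNA was at 23.6 CPM in the class (21.6 to 25.7) on 519 UMIs and at 0.388 CPM in others (0.286 to 0.515) on 48 UMIs, a 60.7-fold difference (45.1 to 83.4), and 11.5-fold with doublet calls kept. The receptor genes around it were nearly silent: Olfr1457, Olfr1461 and Olfr1462 had 0 UMIs in any kept nucleus, and Olfr1458 had 0 in the class and 5 elsewhere. Olfactory receptors form a family of similar genes, so how reads were divided among copies is uncertain, and its deposited start interval reached more than 1 kb beyond its RefSeq gene. No peak lay within 50 kb of its start, and its accessibility could not be described. The genes most like it over the clusters were Itga7, a laminin-binding integrin (r 0.99), and the trophoblast factors Elf5 and Esrrb (both 0.98).

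Oxct2b (ENSMUSG00000076438, chr4:123116248-123118000) is a relative of Oxct1, the mitochondrial transferase that lets cells burn ketone bodies. It had 106 UMIs in the class and 15 elsewhere, or 4.81 CPM (3.94 to 5.82) against 0.121 CPM (0.0679 to 0.200), a 39.7-fold difference (23.0 to 73.4). With doublet calls kept the fold was 8.92. It lies wholly inside the RefSeq gene of Bmp8b, a bone morphogenetic protein gene whose start is 11.1 kb upstream and whose RNA was itself 8.42-fold higher in the class (74.7 against 8.88 CPM, 7.79 to 9.09). Oxct2b lies on the plus strand and downstream of the Bmp8b start, and how reads that fall in both genes were counted is uncertain. How reads shared with its close copy Oxct2a (3 UMIs in the class, 3 elsewhere) were assigned is uncertain. Bmp8a, which was not among the genes with a start within 50 kb of Oxct2b, was 7.81-fold higher (23.2 against 2.98 CPM). The genes most like Oxct2b over the clusters were Syt8 (r 0.99), Aire and Noct (both 0.98).

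Accessibility at Oxct2b was lower in the class at the start and went in both directions further off. Its 2 start peaks together were at 2.31 CPM in the class and 7.59 CPM in others (0.304-fold, 0.197 to 0.448). Of 23 peaks within 50 kb, 8 were at least 2-fold higher and 5 lower, beside 11.7% and 39.5% of peaks near any start. The largest ratios were at 47.8 kb upstream (30.6 against 1.19 CPM, 25.7-fold, 21.0 to 31.5) and at 9.19 kb upstream inside Bmp8b (21.2 against 1.77 CPM, 11.9-fold, 9.84 to 14.5). A peak 22.5 kb upstream in Gm12923 reached 42.6 CPM in the class and 31.9 CPM in the Prl3d1-led cluster, against 5.38 CPM in others. Among the 8 other tested ketone body genes, 1 was higher: Oxct1 at 360 against 62.4 CPM (5.77-fold, 5.59 to 5.95). Those lower included the dehydrogenase Bdh2 (0.397-fold) and the monocarboxylate transporter Slc16a7 (9 against 328 UMIs).

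Nat8l (ENSMUSG00000048142, chr5:33995984-34005916) encodes the enzyme that joins acetyl-CoA to aspartate and is best known from neurons. Its RNA reached 111 CPM in the class (106 to 115) on 2436 UMIs and 4.03 CPM in others (3.68 to 4.40), a 27.5-fold difference (24.9 to 30.3). In the named classes outside it ranged from 2.59 CPM in haemato-endothelial progenitor-like nuclei to 4.55 CPM in anterior streak-like nuclei, and was at 0 UMIs in the 27 parietal endoderm-like nuclei. The unnamed cluster 16 was higher, at 14.6 CPM (8.48 to 23.3). With doublet calls kept the fold was 11.97. Its start peak was 2.67-fold higher (41.7 against 15.6 CPM, 2.40 to 2.96), and 17.8 CPM was seen there in epiblast-like nuclei. Some upstream peaks had larger ratios. At 7.25 kb before the start the class was at 20.9 CPM and others at 0.524 CPM (39.8-fold, 29.7 to 54.2). At 15.6 kb before it the levels were 15.4 and 0.461 CPM (33.4-fold, 24.5 to 46.0). Of 16 peaks within 50 kb, 7 were at least 2-fold higher and 3 lower, beside 11.7% and 39.5% of peaks near any start. The RNA of the neighbour Gm1673, 12.5 kb away, was 8.18-fold higher (7.61 to 8.80). Over the clusters Nat8l was most like Duox2, 2410141K09Rik (r 0.99 each) and Cldn3 (0.98).

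Other N-acetylaspartate genes split. Of 7 tested, 2 were higher: the mitochondrial aspartate carrier Slc25a12 (49.4 against 15.3 CPM, 3.23-fold) and Rimkla, a synthase of the dipeptide NAAG (3.41 against 1.55 CPM, 2.19-fold). The 3 lower ones were the second NAAG synthase Rimklb (0.209-fold), the dipeptidase Naalad2 (0.381-fold) and the carboxylate transporter Slc13a3 (0.201-fold). The degrading enzyme Aspa was at 1.09 against 1.53 CPM.

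Htra1 (ENSMUSG00000006205, chr7:130936203-130985658) was the most deeply counted member, with 5274 UMIs in the class. It stood at 239 CPM (233 to 246) against 10.1 CPM (9.53 to 10.7), a 23.7-fold difference (22.3 to 25.3), and between 8.21 and 11.7 CPM in the other named classes, whose intervals overlapped in part. Of the unnamed clusters, cluster 16 was at 42.0 CPM (31.0 to 55.5) and cluster 10, with a median of 1839 UMIs, at 18.1 CPM (12.6 to 25.1). With doublet calls kept the fold was 9.73. The 250 bases before its start (chr7:130935953-130936202, plus strand) are shown as a contrast to Il5ra: they are 64.8% GC with 22 CpG pairs, where the stretch before Il5ra is 48.0% GC with 4. Capitals mark the 1 motif match, a GC box.
Htra1 upstream: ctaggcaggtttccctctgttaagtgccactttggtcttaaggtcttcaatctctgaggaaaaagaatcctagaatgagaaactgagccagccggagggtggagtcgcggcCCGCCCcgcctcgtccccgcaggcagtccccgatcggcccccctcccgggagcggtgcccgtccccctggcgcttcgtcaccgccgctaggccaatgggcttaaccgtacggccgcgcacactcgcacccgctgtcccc
The start peak was at 30.4 against 16.3 CPM (1.87-fold, 1.66 to 2.10). Inside the gene the ratios were larger. The peak 9.78 kb downstream of the start was at 44.5 against 1.19 CPM (37.5-fold, 31.0 to 45.6), its neighbour at 10.4 kb was 32.5-fold higher (24.8 to 42.9), and the peak at 46.5 kb was at 90.2 against 3.64 CPM (24.8-fold, 22.0 to 27.9). That last peak had a count in 49.3% of class nuclei and 3.02% of others, and was at 28.7 CPM in the Prl3d1-led cluster. Htra2, the mitochondrial relative, was 2.48-fold higher in RNA (71.6 against 28.9 CPM), and Htra3 and Htra4 had 1 and 2 UMIs in the class. The genes most like Htra1 were 2410141K09Rik, Gsto1 and Dppa4 (r 0.99 each).

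Plut (ENSMUSG00000092570, chr5:147228598-147271521) was also found in visceral endoderm-like nuclei. It stood at 44.9 CPM in the class (42.2 to 47.8) and 5.02 CPM in others (8.95-fold, 8.09 to 9.91), where visceral endoderm-like nuclei held 20.3 CPM (18.5 to 22.4), and haemato-endothelial progenitor-like nuclei 3.76 CPM (2.52 to 5.39). Epiblast-like, primitive streak-like and anterior streak-like nuclei were at 0.819, 0.853 and 0.775 CPM with overlapping intervals. Against epiblast-like nuclei alone the ratio was 54.9-fold. The 250 bases before the RefSeq start (chr5:147271522-147271771, minus strand) lie inside the Pdx1 gene and are shown for the 3 kinds of searched motif they hold. Capitals mark the T-box letters GGTGTGA (3.98% of promoter windows) and, directly side by side, the ETS letters CCGGAAG (8.86%) and the GATA letters AGATAA.
Plut upstream: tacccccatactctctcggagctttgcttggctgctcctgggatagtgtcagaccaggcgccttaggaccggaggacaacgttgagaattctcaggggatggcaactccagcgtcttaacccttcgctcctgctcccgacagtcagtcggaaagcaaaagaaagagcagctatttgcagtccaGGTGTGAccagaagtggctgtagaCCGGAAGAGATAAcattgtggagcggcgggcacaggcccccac
Both start peaks together were lower in the class, at 18.6 against 31.2 CPM (0.596-fold, 0.513 to 0.688), and stood at 39.1 CPM in epiblast-like nuclei, where Plut RNA was scarce. Their summed log2 ratio was -0.75, not far from the median of -0.58 for single peaks near any start. Of the 2 start peaks, 1 was at least 2-fold lower. Of 31 peaks within 50 kb, 3 were at least 2-fold higher and 10 lower, shares near the 11.7% and 39.5% of peaks near any start. The highest ratio was 26.4 kb upstream, on the side of Cdx2 (33.0 against 2.05 CPM, 16.1-fold, 13.6 to 19.2), and this peak was at 27.6 CPM in the Prl3d1-led cluster and 1.69 CPM in visceral endoderm-like nuclei. A peak 6.05 kb upstream was 2.80-fold higher (33.9 against 12.1 CPM, 2.49 to 3.14).

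Of the homeobox neighbours of Plut, Pdx1 and Cdx2 were higher in the class too, while Gsx1 had too few UMIs to compare (1 in the class, 1 elsewhere). Pdx1, whose RefSeq gene overlaps that of Plut, had 4.49 against 0.970 CPM (4.63-fold, 3.51 to 6.09) and Cdx2, 35.7 kb away, 69.8 against 10.4 CPM (6.69-fold, 6.21 to 7.21). Whether counting used the strand was not given in the sources used here, so reads in the stretch where both genes overlap (chr5:147270097-147271521) cannot be told apart. Flt3, the receptor gene on the far side of Cdx2, was at 0.817 against 0.946 CPM. Cdx2 and Plut did not always go together: the unnamed RNA cluster 15 (139 nuclei) had Cdx2 at 71.3 CPM and Plut at 1.21 CPM (0.146 to 4.37). The genes most like Plut over the clusters were Prkar2a (r 0.97), Klhl13 and Ubash3b (both 0.95).

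Enpp3 (ENSMUSG00000019989, chr10:24773814-24836195) was the one member that was low in the class. Its product splits nucleotides outside the cell. It stood at 4.63 CPM in the class (3.78 to 5.62) and 30.2 CPM in others (29.2 to 31.2), 6.52-fold higher outside (5.35 to 8.01, a log2 ratio of -2.70 for the class). As class over others the ratio was 0.1535, and it was 0.257 with doublet calls kept and 0.0672 with the class from RNA clusters. In nuclei of the class by both assays it was at 2.003 CPM, and in the Prl3d1-led cluster at 11.0 CPM. The order of named classes began with epiblast-like nuclei at 67.9 CPM (65.3 to 70.5), then anterior streak-like at 35.4 CPM (31.8 to 39.2), primitive streak-like at 14.1 CPM (12.01 to 16.4) and visceral endoderm-like at 12.3 CPM (10.9 to 13.9). The last pair overlapped, as did the class with parietal endoderm-like nuclei (2.74 CPM on 1 UMI). Haemato-endothelial progenitor-like nuclei were at 2.20 CPM (1.28 to 3.52). The order at the low end turned when RNA named the nuclei: the class was then at 1.98 CPM (1.36 to 2.78), haemato-endothelial progenitor-like nuclei at 2.44 CPM (0.896 to 5.32) and extraembryonic mesoderm-like nuclei at 1.61 CPM (0.832 to 2.81), with overlapping intervals. The streak classes turned as well, with primitive streak-like nuclei at 30.4 CPM and anterior streak-like nuclei at 13.9 CPM by RNA. The genes most like Enpp3 over the clusters were Mcf2l (r 0.96), Dtna (0.95) and Cntnap4 (0.94).

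Single peaks at Enpp3 differed in both directions. The peak over its start was higher in the class, at 3.41 against 1.58 CPM (2.16-fold, 1.46 to 3.10), as was one 9.80 kb inside the gene (12.03 against 4.42 CPM, 2.72-fold, 2.22 to 3.33). The peak 1.26 kb downstream of the start went the other way, at 1.75 against 6.25 CPM (0.281-fold, 0.165 to 0.447), and was at 11.6 CPM in epiblast-like and 17.3 CPM in Prl3d1-led nuclei. Of 19 peaks within 50 kb, 2 were higher and 7 lower, again near the shares of 11.7% and 39.5% around any start. Summed over all 19 the ratio was 0.964 (0.889 to 1.04). In the ENPP family, Enpp2, which makes lysophosphatidic acid, was also lower (4.36 against 47.1 CPM, 10.8-fold higher outside) and Enpp4 was higher (3.04 against 0.825 CPM, 3.69-fold), of 4 other tested genes. Of 8 purinergic genes tested, 3 were higher: the ectonucleotidase Entpd1 (10.2 against 1.14 CPM, 8.96-fold), the receptor P2ry2 (35 against 45 UMIs, 4.37-fold) and the deaminase Ada (2.80-fold). The 3 lower ones were the AMP-splitting enzyme Nt5e (0.295-fold) and the receptors P2ry1 (0.411-fold) and Adora2b (0.339-fold).

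Within the trophoblast the members separated extraembryonic ectoderm-like from Prl3d1-led nuclei to unequal degrees. Between the 1168 nuclei placed by both assays and the 383 Prl3d1-led nuclei, Duox2 was 18.6-fold higher in the former (75.6 against 4.07 CPM, 12.1 to 30.2), Nat8l 13.2-fold (143 against 10.8 CPM, 10.1 to 17.6), Plut 12.97-fold (57.8 against 4.45 CPM, 8.59 to 20.6) and Duoxa2 10.2-fold (57.4 against 5.62 CPM, 7.07 to 15.4). Il5ra had 170 UMIs in the former and 1 in the latter (53.3-fold, 9.43 to 2117). Smaller ratios were seen for 3 members: Olfr1459 (29.4 against 6.003 CPM, 4.89-fold, 3.40 to 7.28), Htra1 (294 against 80.4 CPM, 3.66-fold, 3.31 to 4.05) and Oxct2b (5.52 against 2.13 CPM, 2.59-fold, 1.38 to 5.38). For comparison, the marker Elf5 was 2.03-fold and Esrrb 10.0-fold higher. These folds were not tested against each other, and RNA had placed both sets of nuclei. Plut was at 4.45 CPM in the Prl3d1-led cluster, within the range of named classes outside by RNA, from 0.412 CPM in primitive streak-like to 16.7 CPM in visceral endoderm-like nuclei.

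Among nuclei placed by both assays, the 3 accessibility clusters also differed in level. In clusters 12, 13 and 8, Plut stood at 81.6 CPM (74.8 to 88.9), 58.0 CPM (49.8 to 67.2) and 35.7 CPM (31.4 to 40.4), with no overlap between neighbours. Duox2 stood at 87.0, 75.2 and 65.3 CPM, where cluster 13 overlapped both of the others and clusters 12 and 8 did not overlap. Olfr1459 ran the other way at 24.1 CPM (20.4 to 28.2), 29.2 CPM (23.5 to 35.9) and 34.4 CPM (30.1 to 39.0). Of the stem-like markers in the same nuclei, Esrrb stood at 223, 179 and 169 CPM, Cdx2 at 96.0, 79.1 and 75.2 CPM, and Elf5 at 233, 213 and 212 CPM. The ectoplacental marker Ascl2 stood at 5.91, 7.78 and 14.5 CPM. The nuclei of cluster 13 were shallower, with medians of 3767 peak counts and 10851 UMIs, against 18943 and 13026 in cluster 12. The part of these markers and of depth in the steps was not tested. The panels of levels within the trophoblast show these steps beside the drop to the Prl3d1-led cluster.

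**Figure D4:**
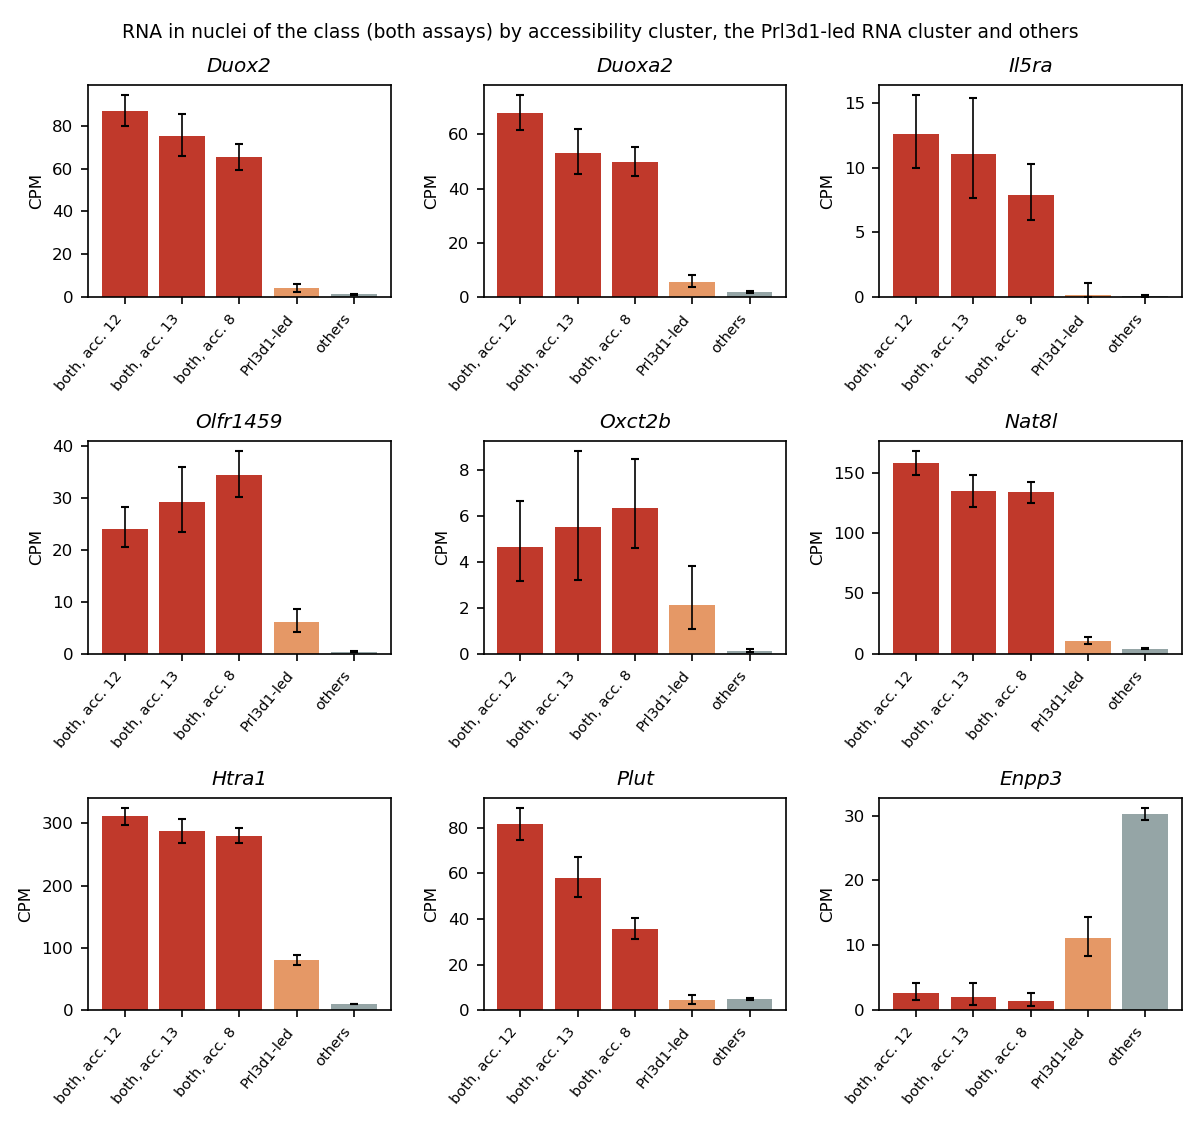
Summed RNA (CPM, linear axes that start at 0) with exact Poisson intervals in nuclei of the class by both assays split by accessibility cluster (acc. 12, 13 and 8), in the Prl3d1-led RNA cluster and in nuclei outside both classes and that cluster. With the class nuclei of all acc. clusters pooled, Duox2, Duoxa2, Il5ra, Nat8l and Plut drop to the Prl3d1-led cluster by 10.2-fold or more. Enpp3 is highest outside (30.2 CPM).

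UMIs were spread over the 1168 nuclei placed by both assays in different ways. Duox2 had 0 UMIs in 526 of them, 1 UMI in 330, 2 in 161, 3 or 4 in 118 and 5 or more in 33, with a variance of 1.79 times the mean. Htra1 had 0 UMIs in 113 nuclei and 5 or more in 435. Oxct2b had 1 UMI in 81 nuclei and 2 in 5, with variance and mean about equal (1.03). The ratio of variance to mean depends on the mean, which was 0.0779 for Oxct2b and 1.067 for Duox2, so it does not rank the genes. The part of unequal depth and of cluster levels in it was not tested. Olfr1459 was uneven: 920 nuclei had 0, 15 had 5 or more, 1 nucleus held 25 UMIs, and the variance was 5.18 times the mean. Plut was similar, with 795 nuclei at 0, 55 at 5 or more, a highest count of 27 and a variance of 4.97 times the mean. Il5ra, at a mean of only 0.1455, had 4 nuclei at 5 or more, a highest count of 7 and a variance of 2.115 times the mean. Without the nucleus richest in the gene on each side, the fold was 61.7 for Olfr1459 and 8.85 for Plut. Outside the class the counts were mostly single: all 10 nuclei with Il5ra had 1 UMI and 145 of 153 nuclei with Duox2 had 1.

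**Figure D5:**
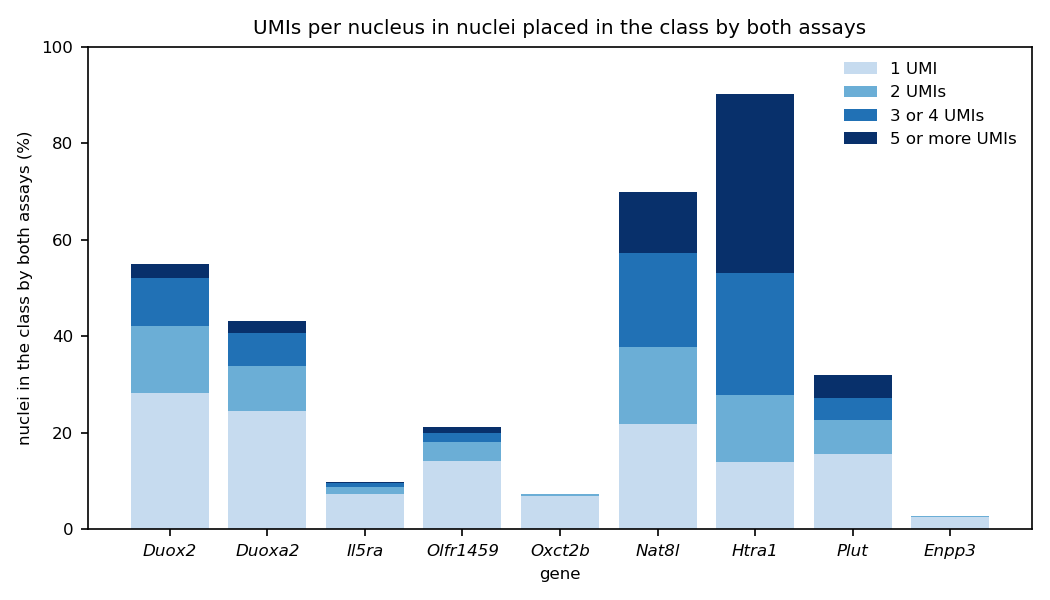
Share of the 1168 nuclei placed in the class by both assays (percent, bars start at 0) that held 1, 2, 3 or 4, or at least 5 UMIs of each gene, at the depth as deposited. Htra1 was seen in 90.3% of these nuclei and Oxct2b in 7.36%, and the darkest segments, for 5 or more UMIs, are widest for Htra1 and Nat8l.

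Detection of one member was compared with that of another for 36 pairs, and the intervals were apart for 1 of them, Duox2 with Plut. In 18 pairs the second gene was seen more often with the first and in 18 less often. In 1110 nuclei placed by both assays and thinned to 5000 UMIs, Duoxa2 was seen in 28.4% of nuclei with a Duox2 UMI (23.5 to 33.7) and in 22.5% of those without (19.6 to 25.5), and both were seen in 90. Plut was seen in 22.7% of nuclei with Duox2 (18.2 to 27.7) and 14.8% of those without (12.4 to 17.4), and Nat8l in 52.4% (46.7 to 58.0) and 44.8% (41.3 to 48.3). Other pairs ran the other way, with Htra1 at 70.4% and 73.1% and Olfr1459 at 7.26% and 10.1%, and with overlapping intervals. Accessibility was compared at the deposited depth, without thinning, between all nuclei with and without the RNA among the 1168 placed by both assays. The shared start peak of Duox2 was at 41.8 CPM in the 642 nuclei with a Duox2 UMI and 33.1 CPM in the 526 without (1.26-fold, 1.02 to 1.57), and all peaks within 50 kb of Plut were at 271 and 231 CPM (1.17-fold, 1.08 to 1.27). The windows of Duox2 (1.18-fold, 1.07 to 1.31) and Nat8l (1.19-fold, 1.04 to 1.37) also had intervals above 1. The intervals of the other comparisons included 1, among them the start peaks of Duoxa2 (1.17-fold, 0.952 to 1.43), Plut (1.19-fold, 0.879 to 1.59) and Nat8l (1.23-fold, 0.978 to 1.56). The same held for the windows of Htra1 (1.06-fold, 0.898 to 1.26) and Oxct2b (1.03-fold, 0.887 to 1.197). Nuclei with the RNA were deeper, with medians of 14568 against 11281 UMIs for Duox2 and 14467 against 12028 for Plut, and the part of depth in these ratios was not tested.

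Other settings kept the direction of every member's RNA fold and moved the sizes, while window accessibility of Enpp3 and Plut, near 1, changed side in some. Over 11 other settings the Duox2 RNA fold ran from 14.5 (doublet calls kept) to 57.8 (without the mixed cluster 8), that of Il5ra from 19.6 to 139, that of Olfr1459 from 11.5 to 102 and that of Oxct2b from 8.92 to 47.0, and 8 members stayed at least 2-fold higher in each.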

How the data were processed

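Nuclear RNA and chromatin accessibility of pooled E7.0 mouse embryos were analysed from 1 matrix of 2 libraries. Per the submitters' processing notes, the authors used Cell Ranger ARC 2.0.0 and the build mm10, and the deposited values are whole counts, not normalized: UMI counts per gene and counts per peak. A barcode was kept with 1000 or more UMIs, 500 or more genes, 1000 or more peak counts and a mitochondrial share of 20% or less, and 1100 doublet calls (Scrublet in scanpy 1.11.5, expected rate 0.1) were removed. Nuclei were clustered by RNA (2000 variable genes, 30 components) and by accessibility (term frequency weighting, 30 components, first vector dropped) with Leiden at resolution 1, and clusters were named from 15 marker lists, with the scoring rule set after the data were seen: a mean log2 ratio of at least 0.5, at least 3 markers raised 1.5-fold, and no other list with more markers among the 10 leading genes. A cluster also stayed unnamed if a rival list had at least 3 raised markers, a mean above 0.5 of the best, and as many leading markers. The same held for a cluster with no marker among its leading genes and a median UMI count far below that of all nuclei. No ectoplacental cone-like class was named.

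The members, lists and alternatives were chosen with earlier results of these data known. All 9 members are named, with genes of 11 pathway or locus lists and the 3 genes most like each member over clusters. CPM is the summed count of a feature per 1000000 summed counts of the group. Levels have exact Poisson intervals, folds exact conditional binomial intervals, and shares exact Clopper-Pearson intervals. Peak intervals used estimated fragments, since 86.4% of nonzero peak values were even. A gene or peak counted as higher or lower past 2-fold with at least 50 counts over both groups. With 1 library per assay there are no replicates, so no test was run. A count of 0 was read as an upper limit of 3 counts. The fold calculation was tested on simulated data. Of protein-coding genes shared with RefSeq, 96.6% had their deposited start within 1 kb of the RefSeq gene, which was read as the same build. Promoter sequences were found for 8 members (all but Nat8l), and motifs were searched as exact letters on both strands of 300 bases around each start (250 before, 50 after), for ETS, TFAP2 (GCCNNNGGC), extended nuclear receptor (AAGGTCA), T-box, TEAD (GGAATG), CDX, GATA and GC box motifs. Some genes of the pathway lists are not reported here.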

Additional observations from a re-analysis of the deposited data

How the results depend on the processing

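For the 9 members, 11 alternatives to the choices behind the RNA folds gave 99 values, of which 0 changed direction and 58 moved beyond the counting interval. The lowest fold of each of the 8 higher members came with doublet calls kept (14.5 for Duox2, 8.33 for Plut) and the cause was not tested. The accessibility ratio summed over a window of peaks changed side in 3 of 79 values, all near 1: Enpp3 became 1.001 with the class taken from accessibility clusters and 1.24 within 10 kb of its start, and Plut became 0.968 against epiblast-like nuclei. Within 10 kb, 8 member peaks were higher instead of 33, by construction. With no filter on low counts, 44 listed genes passed 2-fold instead of 27, and 13.3% of all genes were higher instead of 7.59%. Thinning to 2500 UMIs instead of 5000 lowered the Duox2 share of class nuclei to 12.95%. The alternative without the mixed cluster 8 was chosen after seeing the data. As no ectoplacental cone-like class existed, the alternative that would leave it out removed 14 nuclei of the class by RNA alone. No paired analysis was possible because each assay has 1 library and no group has a second sample. Depth limits Il5ra and Oxct2b most, with 10 and 15 UMIs outside the class.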
